A study of Mus musculus with 6 samples.

Results

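Mitosis is run by a small set of proteins whose genes are transcribed late in the cell cycle. Cyclins A and B activate the kinase Cdk1 to bring a cell from G2 into mitosis, the kinetochore and its checkpoint hold chromosomes until all are attached to the spindle, and the anaphase-promoting complex (APC/C) then destroys the cyclins so that the cell can divide. In dividing carcinoma cells these transcripts are abundant, and their levels are widely used as a readout of proliferation. The 35 genes described here are a curated list for the G2/M transition and mitosis, found in the table by gene name with no measured value in the rule, although the list was drawn up with earlier results of these data known. All 35 were found, each as 1 row, among 28154 genes of the deposited table. They were split by role into 11 kinases, cyclins, phosphatases and APC/C factors, 10 kinetochore and checkpoint genes, 12 spindle and cytokinesis genes, and 2 genes of chromosome structure.

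The libraries are bulk RNA sequencing of 4T1, an established mouse mammary carcinoma line, treated with corticosterone, the main glucocorticoid of rodents (3 libraries), or left as control (3 libraries). The sources used here give no dose, time, vehicle or culture conditions, and no allele or transgene is named for either group. The labels do not say whether replicates were separate cultures, so p-values measure only the spread between these libraries. In bulk RNA, fewer cells in mitosis and less mitotic RNA per cell cannot be told apart.

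None of the 35 genes passed an adjusted p under 0.05 in edgeR's quasi-likelihood test, which is what changed means here. The background was 487 of 17283 tested genes (2.82%) with an adjusted p under 0.05 (edgeR's quasi-likelihood test, Benjamini-Hochberg adjusted), while 6 of the 35 had an unadjusted p under 0.05, which is 17.1% of them against 17% of all tested genes. In 8 of the 35 (22.9%) the 3 treated libraries lay wholly above or wholly below the 3 controls, 4 in each direction, against 22.2% of all tested genes. DESeq2 called 2 of them, Hmmr higher and Top2a lower, beside 7.48% of all genes. Limma on filtered FPKM called 0 of the 35, beside 4.24% to 4.26% of all genes, and on unfiltered FPKM 0, beside 0.923%. The median log2 fold change of the 35 was 0.033, against 0.000096 for all tested genes, with 22 values above 0 and 13 below. The 35 genes had between 1649 and 61601 counts in every library. The 95% interval of the fold change lay within 1.25-fold either way for 31 of the 35 and within 1.5-fold for 34. On the log2 scale the interval held 0 for 29 of the 35.

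**Figure D1:**
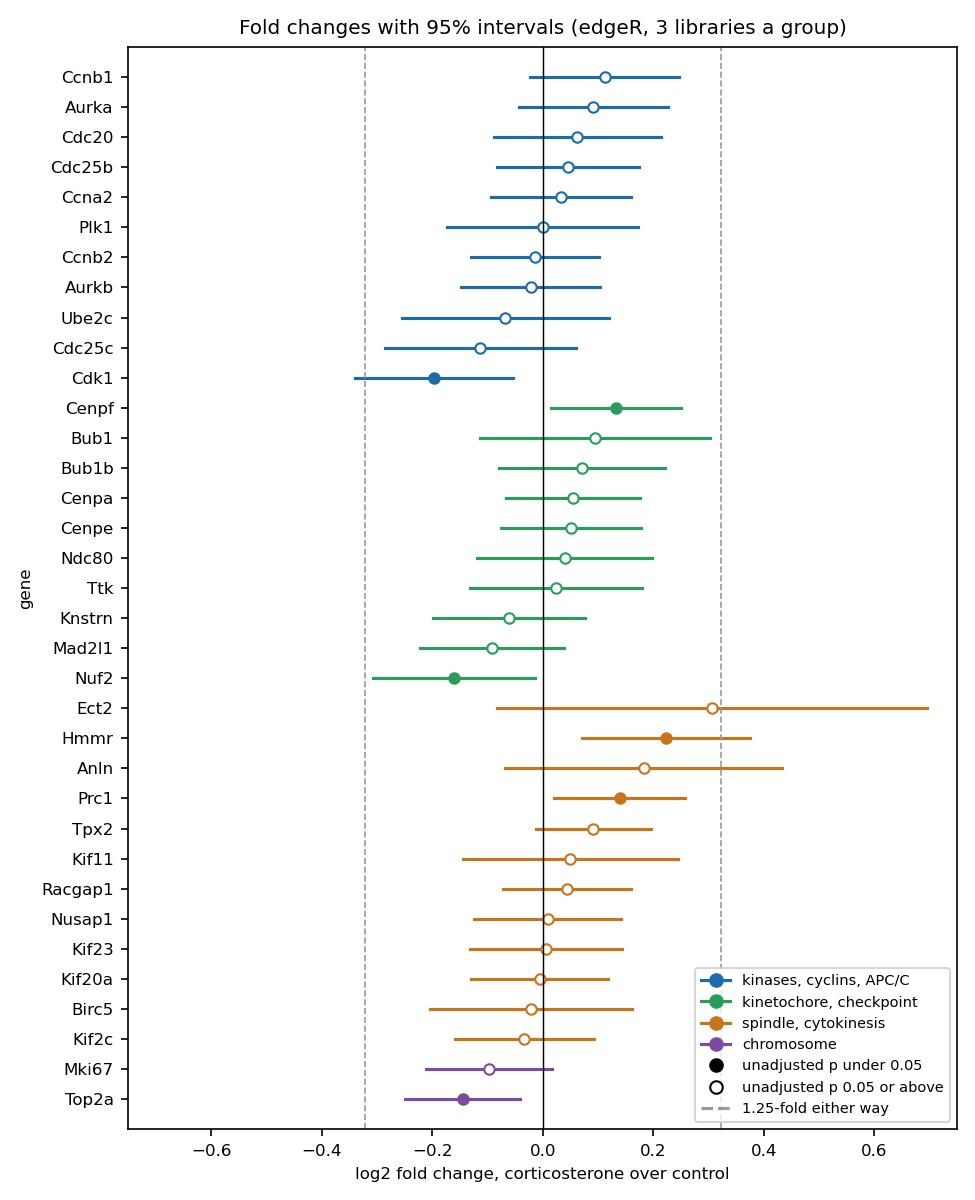
Log2 fold change of each gene, corticosterone over control (x axis), with its 95% interval from edgeR (bars, 3 libraries a group) and genes down the y axis by role. The intervals of 31 of 35 genes stay between the dashed lines at 1.25-fold, and those of Cdk1, Hmmr, Anln and Ect2 cross them.

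Leaving out 1 library raised the number of calls, among the 35 as over all tested genes. Without corticosterone replicate 2, 9 of the 35 genes passed (25.7%), beside 20.5% of all tested genes: Ect2, Anln, Hmmr and Cenpf higher, and Cdk1, Nuf2, Ube2c, Top2a and Mki67 lower (edgeR quasi-likelihood, Benjamini-Hochberg). Leaving out any other library gave 0 calls among the 35, beside 0.493% to 1.34% of all tested genes. That library carried the response of glucocorticoid receptor targets like the others: Per1, Tsc22d3, Fkbp5, Klf9 and Sgk1 averaged 1.27, 1.20 and 1.33 above the control mean on the log2 scale in corticosterone replicates 1, 2 and 3. Per1, a repressor of the circadian clock, was 3.37-fold higher with corticosterone (adjusted p = 7.85e-05, edgeR quasi-likelihood), and Tsc22d3, the gene of the glucocorticoid-induced leucine zipper GILZ, was 2.94-fold higher.

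Library totals ran from 62.2 to 66.2 M counts with corticosterone and from 63.4 to 65.9 M counts in controls. They did not differ beyond the spread of replicates (64.3 ± 2.05 M counts with corticosterone and 64.9 ± 1.34 M counts in controls, SD, n = 3; two-sided exact permutation p = 0.7, where 3 against 3 libraries cannot go below 0.1). The 35 genes together took 0.601%, 0.571% and 0.601% of counts in corticosterone replicates 1, 2 and 3, and 0.598%, 0.587% and 0.570% in control replicates 1, 2 and 3, so the groups overlapped (exact permutation test, two-sided p = 0.5). Of 7 epithelial markers, 6 were found and passed the count filter, with log2 fold changes from -0.33 to 0.0056 (median -0.078). Among them Krt8, Krt18, Epcam and Cdh1 averaged between 237 and 1162 CPM (counts scaled to library depth) in treated libraries. In controls these 4 averaged between 250.2 and 1227 CPM. Of 6 immune markers, 4 passed the count filter, with means of 2.69 to 18.2 CPM with corticosterone and 2.19 to 20.3 CPM in controls, the highest being the monocyte gene Cd14, and the T cell gene Cd3e was near 0. Of 5 fibroblast markers, 4 passed, with means of 1.06 to 23.1 CPM with corticosterone and 0.693 to 21.7 CPM in controls, Pdgfra the highest, and all 4 had positive log2 fold changes (median 0.28). Of 4 vessel markers, Pecam1 passed, with a mean of 0.620 CPM with corticosterone and 1.24 CPM in controls. None of the markers that passed was called by edgeR over all libraries. DESeq2 called 1 epithelial marker and Pecam1 lower, beside 7.48% of all tested genes. EdgeR without corticosterone replicate 2 called 3 epithelial markers and 1 vessel marker lower, beside 20.5%. The part of the markers in any result was not tested.

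Most of the genes share a promoter feature. The rule that found them used no sequence. The motifs searched were already known for late cell cycle genes, so their shares here describe the list and are no independent result. Late cell cycle promoters are known to carry a cell cycle homology region (CHR), bound by the DREAM and MuvB complexes, and CCAAT boxes, bound by the factor NF-Y. In RefSeq promoter windows (GRCm38.p6, 250 bases before to 50 after the start), 30 of the 35 genes matched by symbol, and Aurkb, Ccna2, Cdc25c, Kif20a and Tpx2 had no entry. The CHR (TTTGAA, either strand) stood in 21 of these 30 (70%), against 20.23% of 27025 genes. Its variant (TTCGAA, either strand) stood in 4, against 1.8% of genes. A CCAAT box (CCAAT, either strand) stood in 22 (73.33%), against 41.06% of genes, and 20 of the 30 (66.67%) had a CCAAT box together with a CHR or its variant, against 8.61% of genes. The TATA box (TATAAA, either strand) was in 1 of the 30, that of Kif2c at -228 to -223 from the start, against 15.67% of genes. In a shorter window, from 150 bases before the start, it was in 0 of the 30, against 10.35% of genes. The Kif2c window (chr4:117178723-117179022, minus strand) lies inside the annotated gene, which begins at 117182639. The palindromic glucocorticoid response element (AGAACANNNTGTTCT, either strand) was in 0 of the 30 and in 3 of the 27025 genes. A string this rare could hardly be met in 30 genes, so its absence tells nothing about receptor sites. TTCGAA reads the same on both strands, no motif contains another, and a match is a string of letters, not a shown binding site.

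The promoters of 4 genes are shown, each as 130 bases before to 20 after the RefSeq start on the gene's own strand (GRCm38.p6). Capitals mark the CHR or its variant and the CCAAT box, which read TTCAAA and ATTGG where the match is on the other strand. Cdk1 and Top2a had the lowest p among genes with lower values, Hmmr the lowest p among those with higher values, and Ccnb2 is a gene whose values hardly differed. Ccnb2 has 3 CCAAT boxes spaced 33 bases apart before the CHR at its start.
Cdk1 (chr10:69352893-69353042, minus strand): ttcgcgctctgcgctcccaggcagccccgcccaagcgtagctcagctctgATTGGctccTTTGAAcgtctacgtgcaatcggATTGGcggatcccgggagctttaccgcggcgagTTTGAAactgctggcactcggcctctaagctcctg
Ccnb2 (chr9:70421535-70421684, minus strand): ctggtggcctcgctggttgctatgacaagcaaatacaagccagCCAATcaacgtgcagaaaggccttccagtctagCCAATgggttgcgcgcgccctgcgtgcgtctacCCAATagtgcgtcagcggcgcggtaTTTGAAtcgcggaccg
Hmmr (chr11:40733418-40733567, minus strand): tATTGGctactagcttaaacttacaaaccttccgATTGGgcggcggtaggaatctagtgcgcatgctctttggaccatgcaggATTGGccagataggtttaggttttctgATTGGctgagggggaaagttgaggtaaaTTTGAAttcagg
Top2a (chr11:99024170-99024319, minus strand): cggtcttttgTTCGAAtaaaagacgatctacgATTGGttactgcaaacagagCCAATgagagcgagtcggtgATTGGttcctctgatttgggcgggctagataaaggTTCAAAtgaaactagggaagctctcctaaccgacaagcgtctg

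**Figure D2:**
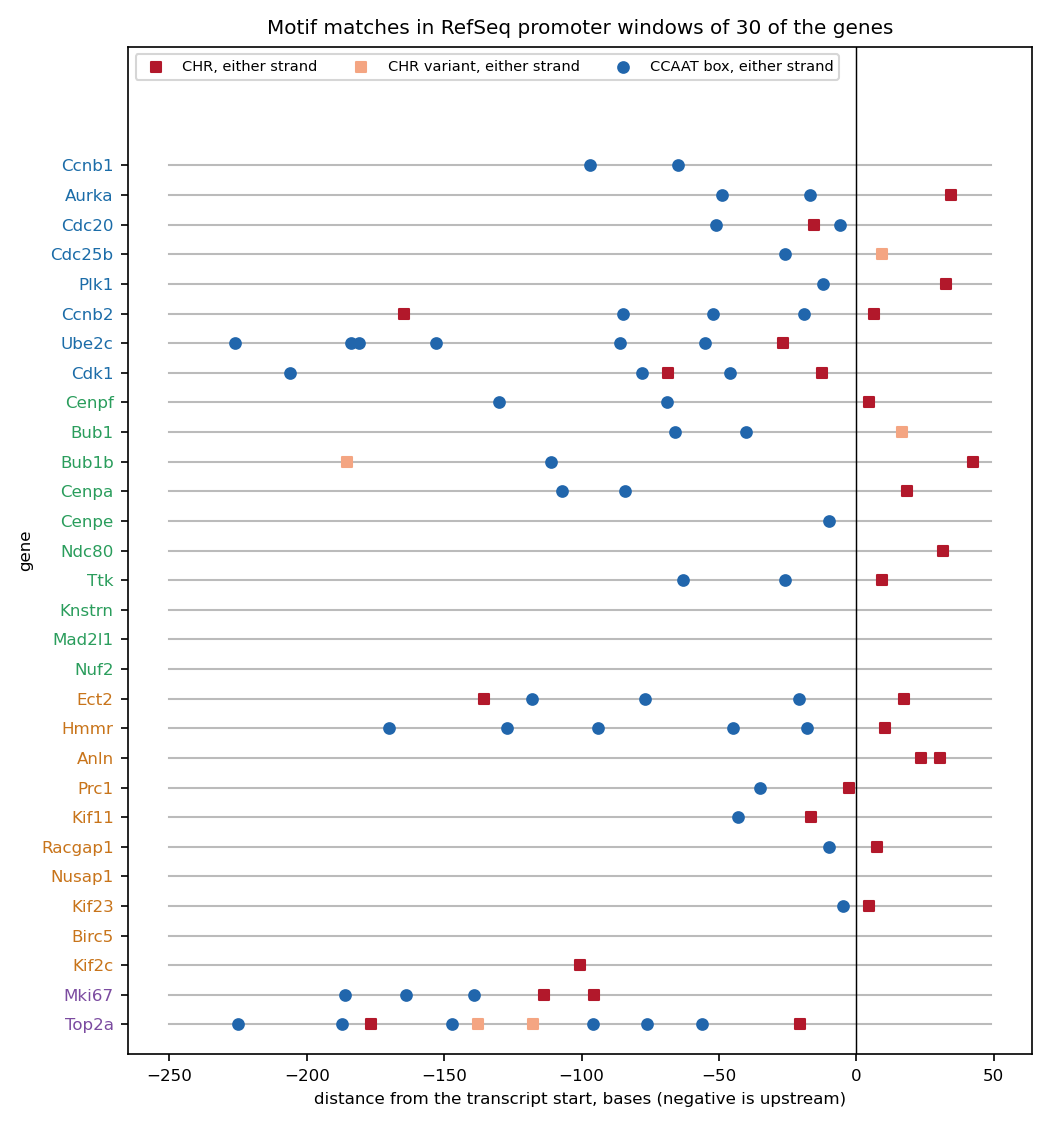
Position of each CHR (dark red squares), CHR variant (light red squares) and CCAAT box (blue circles) in the promoter windows of 30 genes, with the distance from the transcript start in bases on the x axis and genes by role on the y axis. Where a gene has more than 1 window, that at the lowest coordinate is drawn. Of the 30 windows 20 hold a CCAAT box together with a CHR or its variant.

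Fold changes of genes with these motifs had both signs. The 20 genes with both motifs had log2 fold changes from -0.20 (Cdk1) to 0.31 (Ect2), with a median of 0.048 and 15 above 0. The 7 with a promoter entry but no CHR or variant ranged from -0.16 (Nuf2) to 0.11 (Ccnb1), with a median of -0.021 and 3 above 0. These values describe the 2 sets and were not tested against each other.

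Among the kinases, cyclins and APC/C factors, 0 of 11 passed the threshold, and the median log2 fold change was 0.00015. Cdk1, the kinase that drives entry into mitosis (chromosome 10, 69335146 to 69352938, minus strand, GRCm38), had 164, 187 and 166 CPM in corticosterone replicates 1, 2 and 3, against 195, 196 and 202 CPM in control replicates 1, 2 and 3. The treated libraries all lay below the controls, with replicate 2 closest to them. Its fold change was 0.873 (95% interval 0.791 to 0.964, unadjusted p = 0.0131 and adjusted p = 0.161 in edgeR's quasi-likelihood test), and without corticosterone replicate 2 its adjusted p was 0.00332 (edgeR, log2 fold change -0.26).

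The cyclins that Cdk1 binds did not share that pattern. Ccnb1 (cyclin B1) had 156, 144 and 155 CPM with corticosterone, against 143, 145 and 133 CPM in controls. The groups overlapped by the level of corticosterone replicate 2, and the fold change was 1.08 (0.985 to 1.19). Ccnb2 (cyclin B2) lay at 124 to 129 CPM with corticosterone, against 124 to 132 CPM in controls, a fold change of 0.990 (0.914 to 1.07). Ccna2 (cyclin A2), the S and G2 cyclin, lay at 250.3 to 277 CPM with corticosterone, against 252 to 264 CPM in controls (fold change 1.02, 0.938 to 1.12). Per kilobase, Ccnb2 averaged 73.5 ± 0.696 FPKM in treated libraries and 73.9 ± 2.604 FPKM in controls (SD, n = 3), the second highest control level in this role group after Cdc20.

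The phosphatases that switch Cdk1 on overlapped between groups. Cdc25b lay at 104 to 114 CPM with corticosterone, against 103 to 108 CPM in controls. Cdc25c, the least abundant of all 35 genes, lay at 25.4 to 26.2 CPM with corticosterone, against 26.1 to 29.8 CPM in controls, and the groups overlapped by the margin of 1 library. Its fold change of 0.925 had an interval of 0.820 to 1.04.

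Plk1, the Polo-like kinase of centrosome maturation and cytokinesis, had 135, 159 and 132 CPM with corticosterone, against 139, 140.0 and 147 CPM in controls. Corticosterone replicate 2 was the highest of all 6 libraries and the other treated libraries were the lowest, so that the log2 fold change came to 0.00015 (fold interval 0.887 to 1.13). Aurka, the Aurora kinase of the spindle poles, had a fold change of 1.07 (0.971 to 1.17), and Aurkb, the Aurora kinase of the chromosomal passenger complex, one of 0.985 (0.903 to 1.08). Cdc20, the mitotic activator of the APC/C, had 161, 184 and 158 CPM with corticosterone, against 162, 158 and 161 CPM in controls. Ube2c, the ubiquitin-conjugating enzyme of the APC/C, had 151, 180.0 and 147 CPM with corticosterone, against 160.2, 167 and 173 CPM in controls. In both genes corticosterone replicate 2 was the highest library and stood apart from the other treated ones. Without it, Ube2c had a log2 fold change of -0.17 (edgeR, adjusted p = 0.0327), against -0.067 over all libraries, and Cdc20 one of -0.0100, against 0.063.

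**Figure D3:**
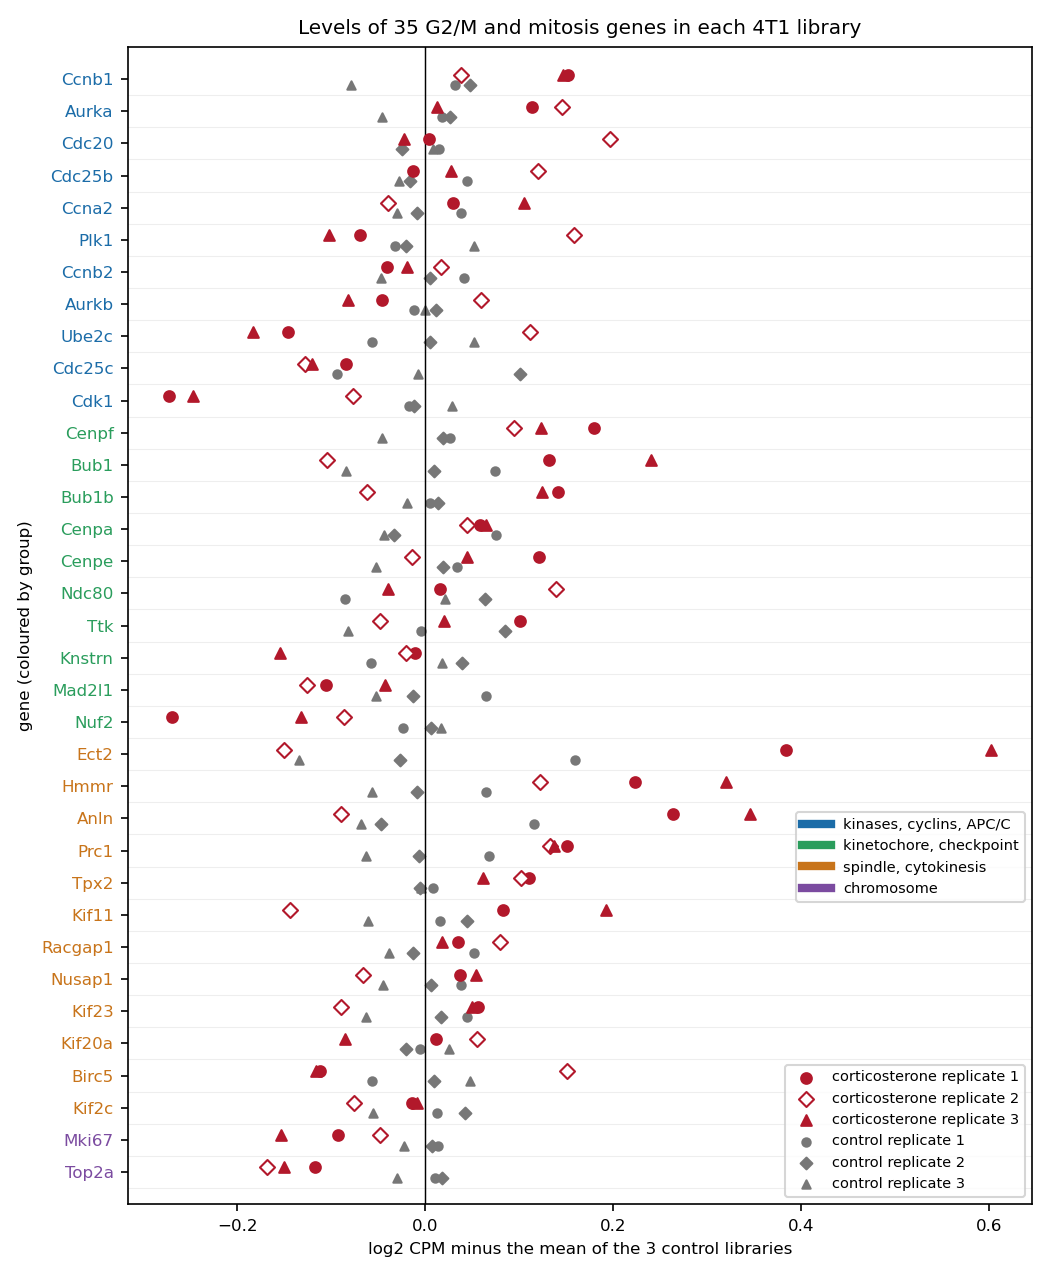
Level of each gene in every library, as log2 CPM minus the mean of the 3 controls (x axis), with genes by role on the y axis, treated libraries in red and controls in grey. Open diamonds show corticosterone replicate 2, which is the highest treated library for 14 genes and the lowest for 19.

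Among the kinetochore and checkpoint genes, 0 of 10 passed the threshold, with a median log2 fold change of 0.045. Cenpf, a large protein of the outer kinetochore, had 141, 133 and 136 CPM with corticosterone, against 127, 126 and 121 CPM in controls. Every treated library was above every control, with a fold change of 1.10 (1.01 to 1.19, unadjusted p = 0.0311 and adjusted p = 0.244 in edgeR). Nuf2, a subunit of the NDC80 complex that binds microtubules, had 57.4, 65.2 and 63.1 CPM with corticosterone, against 68.1, 69.5 and 70.0 CPM in controls. Here every treated library was below every control, with a fold change of 0.895 (0.809 to 0.990, adjusted p = 0.256 in edgeR). Its binding partner Ndc80 lay at 70.5 to 79.8 CPM with corticosterone, against 68.3 to 75.8 CPM in controls, and overlapped.

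The spindle checkpoint genes spread on both sides of 0. Bub1, a checkpoint kinase, had 96.8, 82.2 and 104 CPM with corticosterone, against 93.0, 88.9 and 83.4 CPM in controls, and corticosterone replicate 2 was the lowest of the 6. Bub1b (BubR1), which inhibits Cdc20, was also lowest in that library, with 105, 91.3 and 104 CPM, against 95.6, 96.2 and 94.0 CPM in controls. Without that library their log2 fold changes were 0.18 and 0.13, just outside the threshold (edgeR, adjusted p = 0.0525 and 0.0515). Mad2l1 (Mad2), the other Cdc20 inhibitor, lay at 78.0 to 82.7 CPM with corticosterone, against 82.1 to 89.0 CPM in controls (fold change 0.939, 0.858 to 1.03). Ttk (Mps1), the kinase that starts the checkpoint, had a fold change of 1.02 (0.913 to 1.13). Cenpa, the centromeric histone, had one of 1.04 (0.956 to 1.13), Cenpe, a kinetochore motor, one of 1.04 (0.949 to 1.13), and Knstrn, a spindle and kinetochore adaptor, one of 0.959 (0.871 to 1.06).

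Among the spindle and cytokinesis genes, 0 of 12 passed the threshold, 9 had log2 fold changes above 0, and the median was 0.047. Hmmr, a spindle assembly factor that is also a hyaluronan receptor (chromosome 11, 40701395 to 40733422, minus strand), had 108, 101 and 115 CPM with corticosterone, against 96.6, 91.8 and 88.8 CPM in controls. All treated libraries were above all controls. Its fold change of 1.17 (1.05 to 1.30) had the lowest p of the 35 genes (unadjusted p = 0.00925 and adjusted p = 0.137 in edgeR). Prc1, which bundles the antiparallel microtubules of the midzone, had 206, 204 and 204 CPM with corticosterone, against 195, 185 and 178 CPM in controls, again without overlap (fold change 1.10, 1.01 to 1.20; edgeR adjusted p = 0.227). Tpx2, which activates Aurora A on the spindle, had 199, 198 and 193 CPM with corticosterone, against 186, 184 and 184 CPM in controls. The treated libraries lay close together above the controls, at a fold change of 1.07 (0.991 to 1.15).

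Ect2 and Anln had the widest spread. Ect2, the exchange factor that activates RhoA at the cleavage furrow (chromosome 3, 27097222 to 27153878, minus strand), had 164, 113 and 190.5 CPM with corticosterone, against 140.2, 123 and 114 CPM in controls. The other treated libraries were the highest of the 6 and corticosterone replicate 2 the lowest, so the fold change of 1.24 had an interval of 0.945 to 1.62. Anln (anillin), the scaffold of the contractile ring, had 493, 386 and 521 CPM with corticosterone, against 444, 397 and 391 CPM in controls, in the same order. Without corticosterone replicate 2 the log2 fold changes were 0.49 for Ect2 and 0.30 for Anln (edgeR, adjusted p = 0.00629 and 0.00812), against 0.31 and 0.18 over all libraries.

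The remaining spindle genes had fold changes close to 1. Kif11 (Eg5), the motor that separates the poles, had a fold change of 1.04 (0.905 to 1.18), with corticosterone replicate 2 lowest of all 6 libraries at 129.7 CPM. Kif20a and Kif23, motors of the midzone, had fold changes of 0.997 (0.915 to 1.09) and 1.004 (0.913 to 1.11), and Kif2c (MCAK), a microtubule depolymerase, one of 0.977 (0.896 to 1.07). Racgap1, the partner of Kif23 in centralspindlin, had one of 1.03 (0.952 to 1.12), and Nusap1, a spindle microtubule-binding protein, one of 1.01 (0.918 to 1.10). Birc5 (survivin), of the chromosomal passenger complex, had 119.6, 143 and 119 CPM with corticosterone, against 124 to 134 CPM in controls. Its highest library was again corticosterone replicate 2, as for Plk1, Cdc20 and Ube2c, and the fold change was 0.986 (0.868 to 1.12).

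Both genes of chromosome structure had lower values in every treated library, and neither passed. Top2a, topoisomerase II alpha (chromosome 11, 98992943 to 99024189, minus strand), had 859, 829 and 839.8 CPM with corticosterone, against 939, 944 and 913 CPM in controls. The fold change was 0.905 (0.842 to 0.972, unadjusted p = 0.0120 and adjusted p = 0.154 in edgeR), and its log2 value stayed between -0.16 and -0.13 under 16 alternatives. Top2a had the highest FPKM of the 35 genes, with 83.0 ± 2.55 FPKM in treated libraries and 91.4 ± 2.02 FPKM in controls (SD, n = 3). Mki67, which encodes the proliferation marker Ki-67, had 517, 533 and 496 CPM with corticosterone, against 556, 554 and 543 CPM in controls. The groups did not overlap, and the fold change was 0.935 (0.864 to 1.01; edgeR adjusted p = 0.368).

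**Figure D4:**
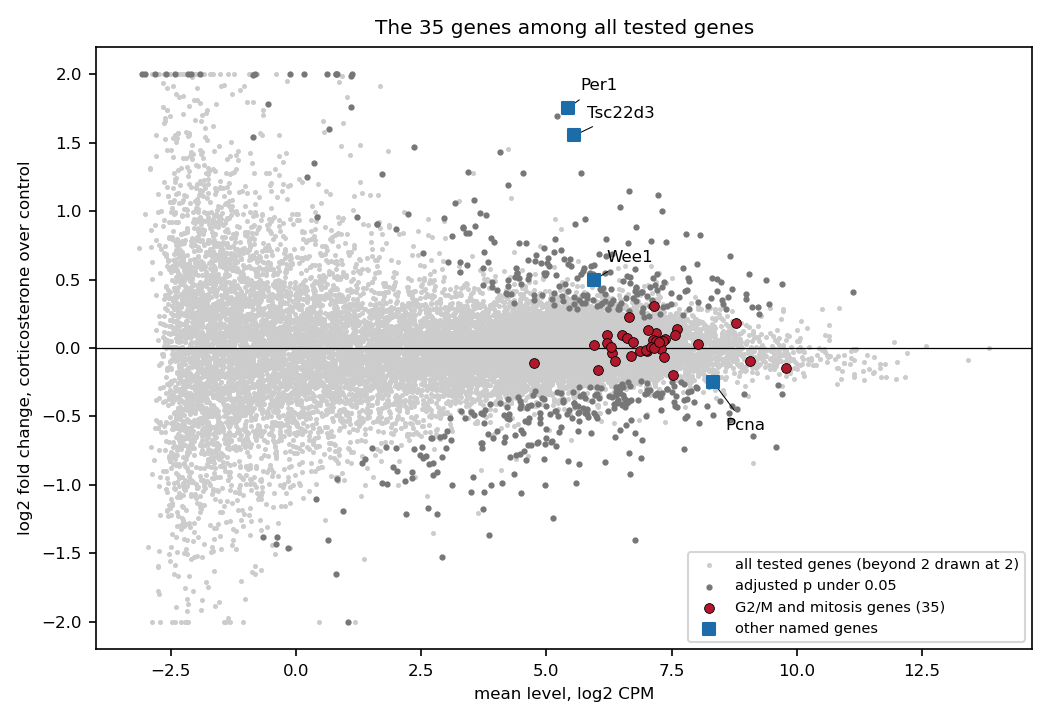
Log2 fold change, corticosterone over control (y axis), against the mean level in log2 CPM (x axis) for 17283 tested genes in grey, the 35 genes in red, and Wee1, Pcna, Per1 and Tsc22d3 as blue squares. The 35 genes lie between -0.20 and 0.31, and Wee1 lies above them at 0.50.

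Binding partners, and the Aurora kinases as related enzymes, were set side by side as log2 ratios of FPKM, 4 pairs chosen after their values were seen. The ratio of Ccnb1 to Cdk1 was 0.15, -0.15 and 0.12 in corticosterone replicates 1, 2 and 3, against -0.22, -0.21 and -0.38 in control replicates 1, 2 and 3. It averaged 0.041 ± 0.17 with corticosterone and -0.27 ± 0.094 in controls (SD, n = 3), without overlap. The ratio of Ndc80 to Nuf2 averaged 0.23 ± 0.099 with corticosterone and 0.033 ± 0.060 in controls, and that of Aurka to Aurkb -0.38 ± 0.040 with corticosterone and -0.49 ± 0.040 in controls, both also without overlap. Each of these 3 ratios reached the smallest p that 3 against 3 libraries allow (exact permutation test, two-sided p = 0.1, Benjamini-Hochberg over 4 pairs 0.133), so none could pass. For Kif23 to Racgap1 the ratios averaged -0.34 ± 0.11 with corticosterone and -0.30 ± 0.028 in controls and overlapped (exact permutation test, two-sided p = 0.9).

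Corticosterone replicate 2 differed from the other treated libraries in opposite directions across the role groups. It was the highest treated library for 8 of 11 kinases, cyclins and APC/C factors, but for 2 of 10 kinetochore and 3 of 12 spindle genes, and it was the lowest for 7 of the kinetochore and 8 of the spindle genes. Set against the control mean, the 11 averaged -0.034, 0.055 and -0.044 on the log2 scale in corticosterone replicates 1, 2 and 3. The 12 spindle genes averaged 0.10, 0.0025 and 0.13. The 6 epithelial markers measured, Krt8 and Krt18 among them, also set this library apart, averaging -0.17, 0.027 and -0.17 in the same order. So did 15 APC/C genes (-0.060, 0.025 and -0.11) and 23 regulators of cell cycle genes (0.13, 0.014 and 0.21). In 30 G1/S and DNA replication genes replicate 2 lay nearer the others (-0.11, -0.081 and -0.10). Base composition and gene length moved with the difference of replicate 2 from the other treated libraries. The 14 genes with replicate 2 highest had a median transcript GC content of 50.4% and a median gene length of 12.7 kb, against 44.7% and 31.2 kb for the 19 with it lowest. Over the 35 genes, the mean of replicates 1 and 3 minus replicate 2 had a Pearson r of -0.69 with GC content (Spearman rho -0.70) and of 0.66 with gene length (rho 0.59). Over 6949 tested genes in the same range of levels these were -0.42 (rho -0.54) and 0.30 (rho 0.58), and over 17258 tested genes of any level -0.21 (rho -0.33) and 0.11 (rho 0.26). These are descriptions across genes that share the same libraries, and the part of composition, length or the epithelial markers in the differences was not tested.

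**Figure D5:**
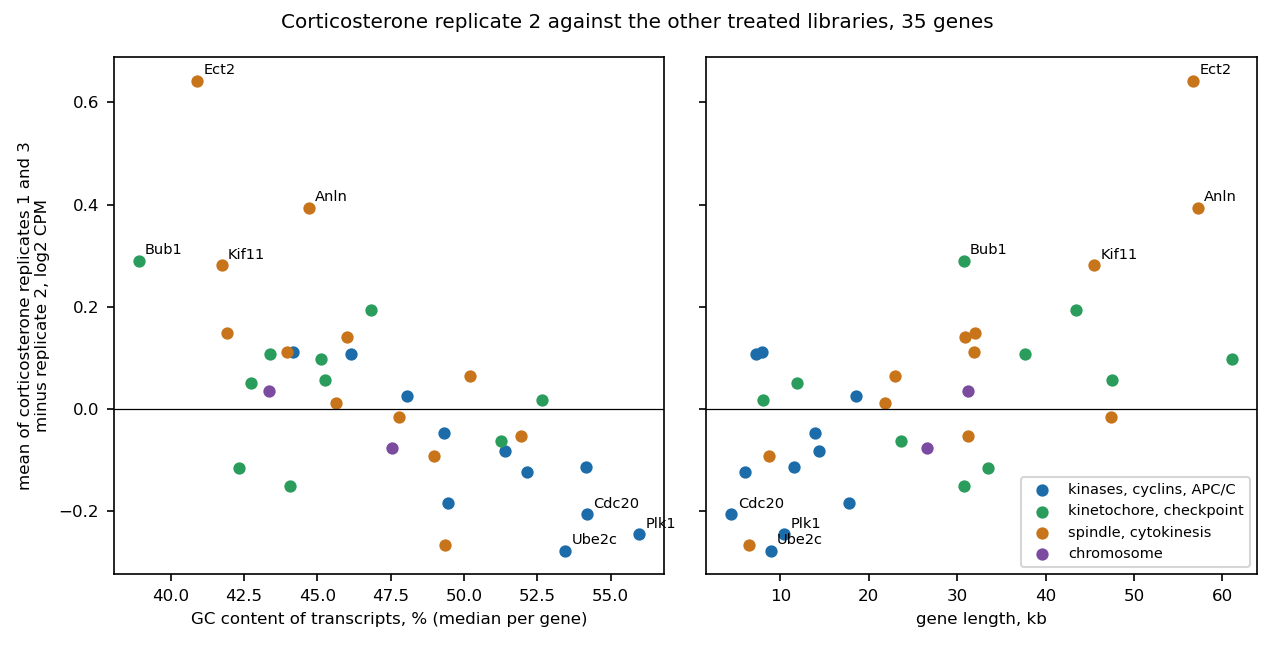
Mean of corticosterone replicates 1 and 3 minus replicate 2 in log2 CPM (y axis) against transcript GC content (left) and gene length (right) for the 35 genes, coloured by role. Long genes of low GC content such as Ect2 and Anln lie highest. Short genes such as Ube2c, Birc5, Plk1 and Cdc20 lie lowest, with GC contents from 49.4% (Birc5) to 56.0% (Plk1). Exceptions include Ndc80 and Nuf2 (30.8 and 33.5 kb, GC content 44.1% and 42.3%), at -0.15 and -0.11, and Cenpa (8.05 kb, 52.7%), at 0.017.

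Outside the 35, a list of 74 other mitosis genes held 1 gene that changed, beside 2.82% of all tested genes. Wee1, the kinase that holds Cdk1 inactive by phosphorylating it before mitosis (chromosome 7, 110122046 to 110143286, plus strand), had 71.2, 69.4 and 77.2 CPM with corticosterone, against 53.4, 51.3 and 49.6 CPM in controls. All treated libraries were above all controls, corticosterone replicate 2 included. It rose 1.41-fold (1.27 to 1.56; log2 fold change 0.50, SE 0.064, adjusted p = 0.00689 in edgeR's quasi-likelihood test). The call held under 14 of 16 alternatives and was lost without control replicate 2 or control replicate 3, with an adjusted p of at most 0.0689 (edgeR), while the log2 fold change stayed between 0.45 and 0.53. The median of the 74 genes was 0.029, close to that of the 35, with 44 above 0 and 30 below. Without corticosterone replicate 2, edgeR called 12 of the 74 higher and 5 lower, beside 20.5% of all tested genes in either direction.

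Of 15 APC/C genes, the elongating enzyme Ube2s included, edgeR called 0 and DESeq2 0, beside 2.82% and 7.48% of all tested genes. Their median log2 fold change was -0.033. At an unadjusted p under 0.05 in edgeR were 2 of the 15, beside 17% of all tested genes. In the edgeR fit that leaves out corticosterone replicate 2, 2 were higher and 5 lower, beside 20.5% of all tested genes. The lowest p belonged to Anapc7 (log2 fold change -0.21), Anapc13 (-0.35) and Cdc26 (-0.20), of which Anapc13 shares exonic sequence with Cep63 on the opposite strand. Of 23 regulators of cell cycle genes, edgeR called 0 and DESeq2 3, beside 2.82% and 7.48% of all tested genes. In edgeR 9 had an unadjusted p under 0.05, beside 17%. EdgeR without corticosterone replicate 2 called 6 higher and 1 lower, beside 20.5%. E2f1, an activator of S phase genes, lay just outside the threshold with 59.0, 63.6 and 56.2 CPM with corticosterone, against 72.9, 70.8 and 75.6 CPM in controls (log2 fold change -0.29, edgeR adjusted p = 0.0549). Trp53 had a log2 fold change of 0.40 (edgeR adjusted p = 0.0837) and Lin52, a MuvB subunit, one of 0.39 (adjusted p = 0.139). Foxm1 and Mybl2, the activators of late cell cycle genes, were chosen after their values were seen and had log2 fold changes of -0.0095 and -0.029.

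The genes of the preceding phase had a lower median. Of 30 G1/S and DNA replication genes, Pcna, the replication clamp, was the 1 that changed in edgeR, beside 2.82% of all tested genes. DESeq2 called 1 of the 30 higher and 7 lower, beside 7.48% of all tested genes in either direction. EdgeR without corticosterone replicate 2 called 3 higher and 14 lower, beside 20.5%. Pcna had 292, 300.1 and 289 CPM with corticosterone, against 348, 348 and 351 CPM in controls, and fell by 0.25 on the log2 scale (edgeR adjusted p = 0.0293). The call was lost under 7 of 16 alternatives, among them leaving out any library but corticosterone replicate 2 (edgeR adjusted p up to 0.190), while the log2 fold change stayed between -0.26 and -0.23. The median log2 fold change of the 30 was -0.11, against a median of 0.033 for the 35 G2/M and mitosis genes. Of the 30, 22 were below 0, beside 8640 of 17283 tested genes. At an unadjusted p under 0.05 in edgeR 12 were lower, beside 1521 of 17283 tested genes. Set against the control mean, the 30 averaged -0.11, -0.081 and -0.10 on the log2 scale in corticosterone replicates 1, 2 and 3. Here replicate 2 lay near the other treated libraries. The difference between the 2 lists was not tested.

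Some values carry limits from the annotation. In all, 10 of the 35 genes share exonic sequence with a gene on the opposite strand in GENCODE M21 (Ccna2, Cdc25b, Cdc25c, Plk1, Cdc20, Ube2c, Knstrn, Kif20a, Prc1 and Nusap1), and the sources used here do not state whether counting used strand. Top2a holds a small gene on its own strand, and Ccnb1 and Ccnb2 have annotated pseudogene copies, so their counts are uncertain to that extent. Outside the 35, Pcna and Trp53 also have annotated pseudogene copies, with the same limit.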

How the data were processed

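Gene expression was measured by RNA sequencing of total RNA from 6 libraries of 4T1 cells, 3 per group. The labelled treatment set the group, and titles gave replicate numbers. The count of each gene in each library was deposited by the authors as a whole number, per the file headers, and is not normalized. FPKM values were deposited by the authors beside them, per the file headers. The sources used here name no aligner, counter or strand setting. The submitters' processing notes name GRCh38, but all 28154 identifiers are of mouse genes, and 28086 were found in GENCODE M21 (GRCm38), 90.4% of them with identical coordinates.

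Counts were filtered with filterByExpr (minimum count 10, minimum total 15), scaled by TMM, and tested across 17283 genes with edgeR 4.0.16 (R 4.3.3), with no covariate and Benjamini-Hochberg adjustment over the whole table. The SE is the log2 fold change over the square root of F, and intervals use the t distribution (95%). CPM values use TMM-scaled totals. The alternatives were DESeq2 1.42.0, limma 3.58.1 on log2(FPKM + 1) and log2(FPKM + 0.1), other scalings and filters, a replicate block, robust empirical Bayes, and leaving out each library. No value column was left unmapped (0). The steps were tested on simulated data.

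The genes, lists and motifs were chosen with earlier results of these data known. Named genes are all 35, and in each other list those that changed or else the 3 with the lowest p. Promoters are RefSeq windows. Library totals of 62.2 to 66.2 M counts put 3 counts at 4.53e-06 to 4.83e-06% of a library, counting error only.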

Additional observations from a re-analysis of the deposited data

How the results depend on the processing

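For the 35 genes the call of 0 held except with DESeq2 (2 calls) and without single libraries (range 0 to 9, the 9 without corticosterone replicate 2), and of 559 single-gene values under alternatives 521 kept direction and side of the threshold. Over all genes 487 calls became 1293 with DESeq2, 260 with limma on unfiltered FPKM, 211 with no low count filter and 88 (without control replicate 2) to 3670 (without corticosterone replicate 2) without single libraries. Over the other 4 cell cycle lists 2 calls became 13 with DESeq2, 5 with limma at either pseudocount, 5 with a mean FPKM of at least 5, 1 with no low count filter, and 0 (without control replicate 2) to 48 (without corticosterone replicate 2). The replicate numbers did not pair the libraries (Pearson r of deviations from group means 0.011, 0.038 and -0.088). With the replicate block 237 genes, 0 of the 35 and 1 of the other lists passed. The count of 20 promoters with both motifs was the same in the shorter window, from 150 bases before the start. The sign turned for 12 genes, none above 0.063 in size, and the cause was not tested. Upper quartile scaling gave -0.0094 for Kif23, -0.0069 for Nusap1 and -0.014 for Plk1, the block gave -0.0041 for Plk1, and a mean FPKM of at least 5 gave 0.0024 for Kif20a. Without single libraries the ranges were -0.065 to 0.011 for Aurkb, -0.12 to 0.028 for Birc5, -0.0014 to 0.067 for Ccna2, -0.038 to 0.010 for Ccnb2, -0.0100 to 0.11 for Cdc20, -0.023 to 0.14 for Kif11, -0.037 to 0.036 for Kif20a, -0.025 to 0.051 for Kif23, -0.013 to 0.081 for Ndc80, -0.014 to 0.044 for Nusap1, -0.087 to 0.052 for Plk1 and -0.017 to 0.067 for Ttk. Fits with 5 libraries have fewer residual degrees of freedom. The 95% intervals of the 35 genes, which reflect the spread between libraries, set what could be told from 0.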
